A study of Homo sapiens with 54 samples.

Results

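The cisplatin (CDDP) response that differed between olaparib-resistant and parental MDA-MB-468 cells was examined in 12 of the 54 libraries of the series. MDA-MB-468 is a triple negative breast cancer cell line with wild type BRCA1. Each of 4 conditions had 3 libraries. The first condition was parental cells given 3 µM olaparib overnight, and the second was parental cells given 3 µM olaparib together with 2.5 µM CDDP. The third was OlaR cells, the resistant counterpart derived by long exposure of the parental line to rising olaparib and kept without a break in 15 µM olaparib, and the fourth was OlaR cells in the same 15 µM olaparib given 2.5 µM CDDP. All 4 conditions therefore contained olaparib, at a higher concentration in the OlaR cells, and the OlaR cells were a single resistant population, so resistance, olaparib concentration and length of exposure cannot be told apart. Nothing in the labels says that the 3 libraries of a condition came from separate cultures, so p-values measure the spread between these libraries, which may be technical.

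The measure described is a difference of differences. For each gene the log2 change with CDDP in parental cells in olaparib was subtracted from the log2 change with CDDP in OlaR cells. A positive interaction means that the gene ended higher with CDDP in OlaR cells than the parental response gives, and a negative interaction that it ended lower. CDDP forms adducts and crosslinks on DNA that block replication forks and transcribing RNA polymerase II, and cells answer with checkpoint signalling, crosslink repair and stress kinases. Olaparib blocks PARP enzymes and traps PARP1 on DNA, and the combination was studied to learn what resistance to one drug does to the answer to the other.

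RNA was read by 3′ tag sequencing, in which each read marks 1 transcript end, and values are reads adjusted by the authors to a common library size, called adjusted reads here. The reads behind them numbered 6174804 to 9268162 in the 6 parental libraries and 4588288 to 4676284 in the OlaR libraries without CDDP. The OlaR libraries with CDDP were shallower, at 2070301 to 4455837. Correlations across genes were at least 0.975 within a condition and at most 0.972 between conditions. All 10 epithelial and MDA-MB-468 markers were expressed, EPCAM at 2740 to 3670 adjusted reads, and their summed level was 19960 to 20370 in parental cells with both drugs, 26750 to 27640 with olaparib alone, 30080 to 30570 in OlaR cells and 25760 to 26040 in OlaR cells with CDDP. Single markers differed more than the sums. KRT5 averaged 3588 in OlaR cells and 476.9 in parental cells in olaparib. KRT19 averaged 15640 and 16490 in the same order, and 9401 in parental cells with both drugs. The part of these differences in the results was not tested. The 8 fibroblast and 4 endothelial markers summed to 50.8 to 123 and 11.7 to 79, the 7 leukocyte markers summed to at most 39.1 and CD3E, CD3D, COL1A2, DCN and LUM had no read. PGR had no read either, while ESR1 reached 221 adjusted reads at most. In bulk RNA, fewer cells of a kind and less RNA per cell cannot be told apart.

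Of 13012 genes tested, 1958 had an interaction at an adjusted p of at most 0.05 (limma, Benjamini-Hochberg over all genes). Of these, 986 were positive (7.58% of the genes tested) and 972 negative (7.47%). An absolute log2 difference of at least 1 was reached by 276, and here the balance was unequal, with 72 positive and 204 negative. With the same threshold and no limit on the fold, CDDP raised 1310 genes (10.1%) and lowered 1700 (13.1%) in parental cells in olaparib, and raised 967 (7.43%) and lowered 1460 (11.2%) in OlaR cells. When the recovered reads were scaled to the total of each library in place of the authors' scaling, the split became 714 positive to 1326 negative, and the median interaction of all genes moved from -0.0163 to -0.0831.

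The called genes fell into classes by what each arm did. Among the 972 negative interactions, 340 rose in parental cells without a call in OlaR cells, 417 fell in OlaR cells without a call in parental cells, 53 rose in parental and fell in OlaR cells, 43 rose in both, 42 fell in both and 77 passed in neither arm. Among the 986 positive interactions, 585 fell in parental cells without a call in OlaR cells, 207 rose in OlaR cells only by that count, 73 fell in parental and rose in OlaR cells, 51 fell in both and 70 passed in neither. The size of the parental change exceeded that of the OlaR change in 713 of the positive interactions but in 448 of the negative ones. Negative interactions thus came from both arms and positive ones more often from a parental fall.

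**Figure D1:**
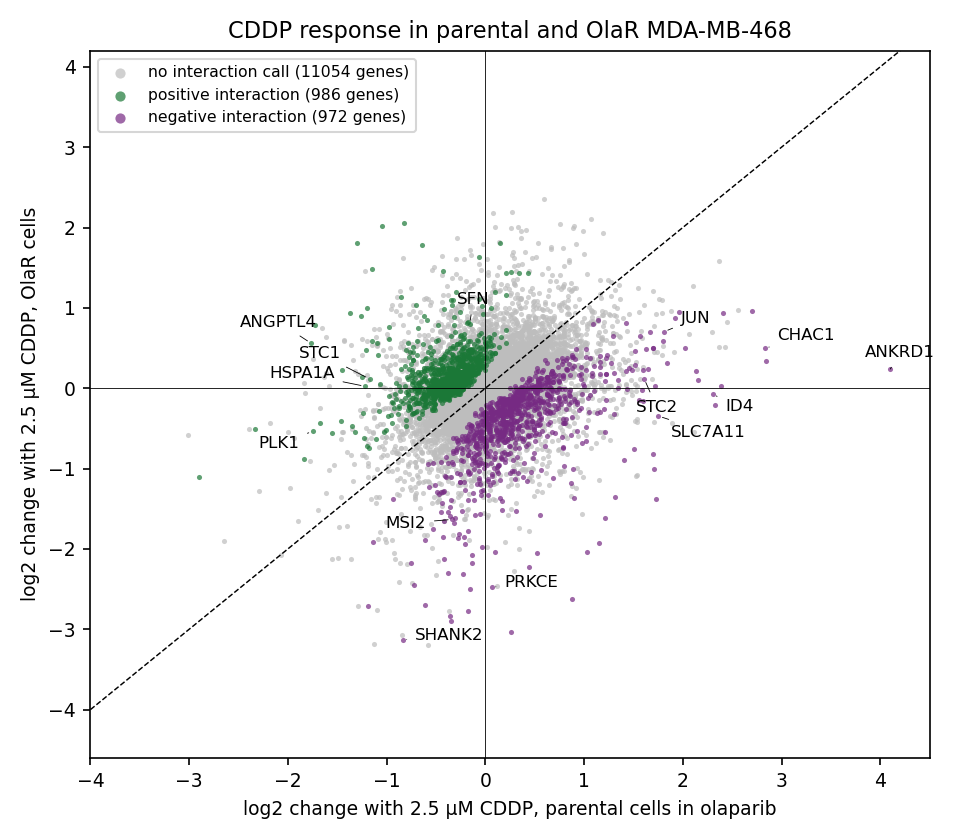
Each point is 1 of 13012 genes, with the log2 change with 2.5 µM CDDP in parental cells in olaparib on the horizontal axis and in OlaR cells on the vertical axis, and the dashed line marks equal change. The 972 negative interactions lie below the line, along the right arm (CHAC1, ID4, SLC7A11) and the lower arm (SHANK2, PRKCE), and the 986 positive ones lie above it.

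CHAC1, STC2 and SLC7A11, which with ID4 had the smallest p values among the negative interactions, are targets of ATF4, the transcription factor that is translated when kinases of the integrated stress response phosphorylate eIF2α and that switches on amino acid transporters, amino acid synthesis enzymes and aminoacyl-tRNA synthetases. Of 31 such genes tested, 25 had a negative interaction and 0 a positive one, with a median of -0.82 against -0.0163 over all genes. In parental cells in olaparib 26 rose with CDDP and 1 fell (median change 0.79), and in OlaR cells 4 rose and 5 fell (median 0.058). ATF4 recognises C/EBP-ATF response elements, and a core of that element was looked for because these genes moved together. TGATGNAA, on either strand, occurred in the RefSeq promoter window (250 bases before to 50 after the gene start, GRCh38.p14) of 6 of the 24 genes of the list that had a window, or 25.0%, against 1.56% of 10213 windows of tested genes. All 6 belonged to the 18 called members with a window. The stretches that follow, each 100 bases of the gene's own strand, show the match in capitals, with its first base counted from the gene start, in 4 members.
CHAC1 (chr15:40953242-40953341, + strand, match at -209): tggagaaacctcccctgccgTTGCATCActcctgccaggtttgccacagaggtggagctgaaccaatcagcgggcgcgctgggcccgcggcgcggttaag
ASNS (chr7:97872409-97872508, - strand, match at -68): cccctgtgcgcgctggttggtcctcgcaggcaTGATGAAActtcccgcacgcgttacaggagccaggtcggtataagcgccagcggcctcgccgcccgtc
ATF3 (chr1:212565196-212565295, + strand, match at -191): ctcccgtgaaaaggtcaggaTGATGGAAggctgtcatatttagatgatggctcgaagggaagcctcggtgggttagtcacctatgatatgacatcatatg
AARS (chr16:70289614-70289713, - strand, match at -187): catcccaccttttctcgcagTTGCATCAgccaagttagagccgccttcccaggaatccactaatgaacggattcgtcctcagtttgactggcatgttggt
In CHAC1 and AARS the match lies on the opposite strand. A match in these letters is a description of the window and not a binding site. The list was made of ATF4 targets, so its higher share does not bear on the interaction.

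CHAC1 (GRCh38 chr15:40953471-40956512), which degrades glutathione and is among the most responsive ATF4 targets, had 42.2, 58.9 and 44.8 adjusted reads in the 3 parental olaparib libraries and 398, 325 and 327 after CDDP was added. The OlaR libraries had 70.6, 71.3 and 76.2 without CDDP and 104, 104 and 101 with it. No library of one condition overlapped with another, and every OlaR library with CDDP lay under every parental library with both drugs. The log2 change was 2.83 in parental and 0.50 in OlaR cells, a difference of -2.34 (SE 0.19, adjusted p = 1.19e-13).

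SLC7A11 (chr4:138164097-138242349), the cystine importer that feeds glutathione synthesis, went in opposite directions in the 2 arms. It had 165, 93.7 and 129 adjusted reads in parental cells in olaparib and 412, 438 and 430.2 with CDDP, and 236, 246 and 199.7 without and 171, 194 and 170.5 with CDDP in OlaR cells. The parental libraries with CDDP stood above all others, and all 3 OlaR libraries with CDDP lay under all 3 without. The interaction was -2.10 (SE 0.17, adjusted p = 4.05e-13). SLC3A2, the heavy chain that carries this transporter and SLC7A5 to the membrane, rose from 627 ± 38.2 (SD, n = 3) to 1449 ± 54.5 in parental cells and was 853 ± 30.2 and 908 ± 97.8 in OlaR cells, an interaction of -1.12 (SE 0.096, adjusted p = 1.09e-12). The leucine carrier SLC7A5 had an interaction of -1.08 (SE 0.14, adjusted p = 5.88e-08), and the cationic amino acid carrier SLC7A1, which was outside the list, of -0.93 (SE 0.078, adjusted p = 5.37e-13). Both rose in parental cells (0.63 and 0.62) and fell in OlaR cells (-0.44 and -0.31).

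STC2 (chr5:173314723-173328414), a secreted glycoprotein induced by stress in the endoplasmic reticulum, had 247, 236 and 274 adjusted reads in parental cells in olaparib and 795, 783 and 730.4 with CDDP. In OlaR cells it had 319.6, 345 and 375 without and 337, 371 and 424 with CDDP, and these 2 groups overlapped. Its interaction was -1.49 (SE 0.12, adjusted p = 1.19e-13). Enzymes of serine and one-carbon metabolism shared the direction. PSPH, which makes serine from phosphoserine, had -0.96 (SE 0.096, adjusted p = 9.66e-11), and PSAT1, PHGDH, SHMT2 and MTHFD2 had interactions of -0.69, -0.58, -0.43 and -0.64, all called. The aminoacyl-tRNA synthetase genes GARS, WARS, CARS, AARS and SARS had -0.78, -0.85, -0.73, -0.42 and -0.43, also all called.

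ASNS, the asparagine synthetase, differed from most of the list in that it rose in both arms, from 216 ± 24.7 to 506 ± 11.2 in parental cells and from 401 ± 4.61 to 533 ± 31.1 in OlaR cells, with an interaction of -0.82 (SE 0.13, adjusted p = 3.41e-06). ATF3, a stress-induced repressor that is also an immediate early gene, rose from 52.1, 71.7 and 55.3 to 336, 322 and 293 in parental cells and from 62.6, 66.6 and 84.1 to 145, 150.3 and 114 in OlaR cells, an interaction of -1.47 (SE 0.23, adjusted p = 6.7e-06). TRIB3, a pseudokinase that feeds back on ATF4, had -0.93 (SE 0.10, adjusted p = 2.36e-09), and SESN2, a leucine sensor that restrains mTORC1 and is a p53 target as well, -1.37 (SE 0.17, adjusted p = 3.75e-08). DDIT4, another inhibitor of mTORC1, fell in OlaR cells from 1183 ± 29.6 to 953 ± 87.5 and was 1749 ± 132 and 1754 ± 127 in parental cells.

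**Figure D2:**
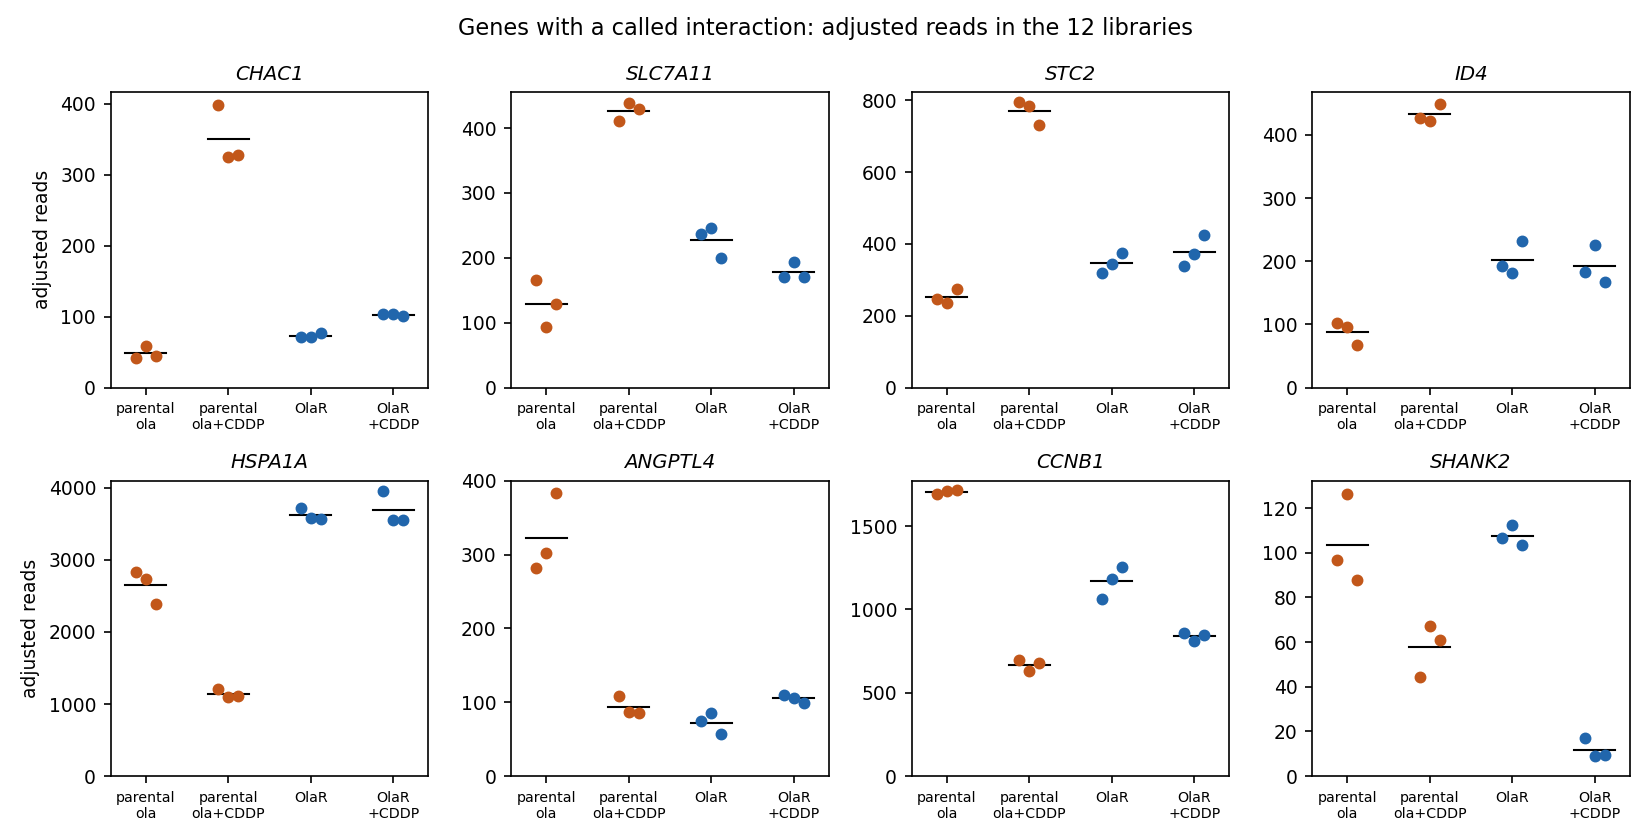
Adjusted reads (vertical axes, from 0) of 8 genes with a called interaction in the 3 libraries of each of 4 conditions, with points for libraries and bars for means. CHAC1, SLC7A11, STC2 and ID4 rose with CDDP in parental cells, where no OlaR library reached their level, HSPA1A and ANGPTL4 fell there alone, CCNB1 fell further there and SHANK2 fell further in OlaR cells.

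The starting level of these genes was itself moved by olaparib. Against untreated parental cells, overnight olaparib lowered 28 of the 31 and raised 0, with a median of -0.70, while 9.11% of all genes tested fell and 12.4% rose. The 3 olaparib libraries enter this comparison and the parental CDDP arm with opposite signs, so levels are set side by side. CHAC1 had 345 ± 31.3 adjusted reads in untreated parental cells (SD, n = 3), 48.6 ± 8.99 in olaparib, 347 ± 30 in 2.5 µM CDDP alone and 350 ± 42 in both. SLC7A11 had 381 ± 8.29, 129 ± 35.7, 327 ± 29.9 and 427 ± 13.7 in the same order. In parental cells in both drugs the median difference from untreated cells was 0.053, with 8 of the 31 higher, ATF3 the most, and 4 lower. The medians in OlaR cells were -0.627 without and -0.662 with 2.5 µM CDDP. RNA of ATF4 itself differed from untreated cells by 0.614 in OlaR cells without and 0.558 with 2.5 µM CDDP. In parental cells it differed by -0.158 in olaparib and by -0.195 in both drugs. With CDDP alone, 6 of the 31 rose and 5 fell against untreated cells (all genes, 13.3% and 11.8%), with a median of -0.0075.

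**Figure D3:**
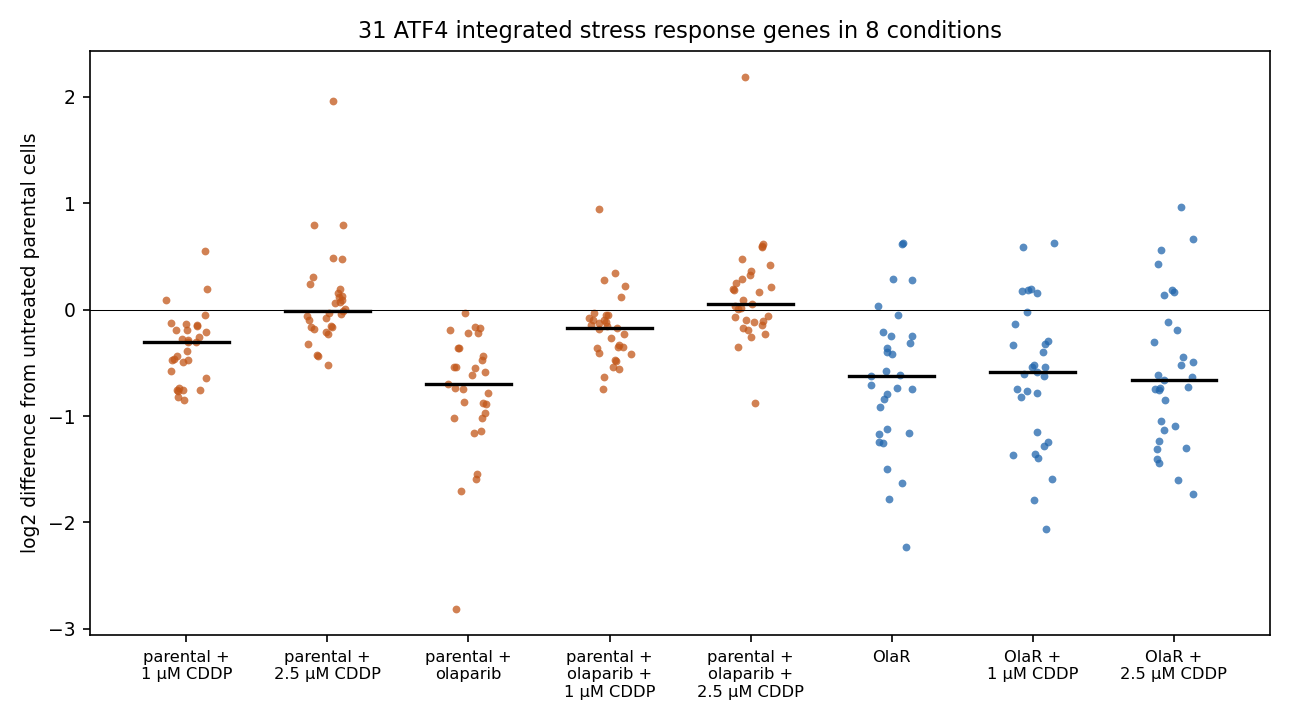
Log2 difference from untreated parental cells (vertical axis) of 31 ATF4 target genes in 8 conditions, with points for genes and bars for medians. The bar sits at -0.702 in parental cells in olaparib and at 0.053 once 2.5 µM CDDP was added, and between -0.583 and -0.662 in OlaR cells with any CDDP dose.

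Immediate early and AP-1 genes, which stress and growth factor kinases switch on within minutes, formed a further group with a larger parental answer. Of 29 tested, 17 rose in parental and 12 in OlaR cells, and 8 had a negative and 3 a positive interaction. JUN, a subunit of AP-1, had 436, 423 and 467 adjusted reads in parental cells in olaparib and 1712, 1491 and 1458 with CDDP, and 369, 375 and 303 without and 603, 523 and 575 with CDDP in OlaR cells. All CDDP libraries exceeded all others of their cells, and the interaction was -1.11 (SE 0.11, adjusted p = 1.29e-10). Olaparib alone lowered 17 of the 29 and raised 0 (median -0.52). EGR1 was at a lower level in OlaR cells to begin with, 80.4 ± 11.4 against 326 ± 50.5, and its interaction was -0.76 (SE 0.18, adjusted p = 0.00196). The positive interactions were in SRF, the serum response factor (-0.61 in parental, 0.36 in OlaR cells), and in IER5 and IER2.

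DUSP1, a phosphatase that switches off JNK and p38, rose from 31.1 ± 4.41 to 207 ± 7.83 in parental cells and from 20.6 ± 7.18 to 40.1 ± 6.74 in OlaR cells, an interaction of -1.74 (SE 0.33, adjusted p = 0.000103). DUSP8, of the same family, had -1.92 (SE 0.52, adjusted p = 0.00703). CTGF, a YAP target, rose in both arms from unlike starting levels, 20.9 ± 5.58 to 74.8 ± 14.6 in parental cells and 162 ± 10.4 to 243 ± 4.47 in OlaR cells. ANKRD1, another YAP target, had the largest negative value among the named genes, with 3.68, 4.77 and 9.19 adjusted reads in olaparib and 101, 124 and 108 with CDDP in parental cells. In OlaR cells it was barely read, 2, 4 and 1 reads in the CDDP libraries, so its interaction of -3.86 (SE 0.52, adjusted p = 1.69e-07) describes a gene that rose in parental cells and stayed at the detection limit in OlaR cells.

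ID4 (chr6:19837370-19842197), an inhibitor of basic helix-loop-helix factors that marks basal-like breast cells, had 102, 95.7 and 67.4 adjusted reads in parental cells in olaparib and 427, 422 and 449 with CDDP, against 193, 181 and 232 without and 183, 226 and 167 with CDDP in OlaR cells. The parental groups were far apart and the OlaR groups overlapped, and the interaction was -2.38 (SE 0.19, adjusted p = 1.19e-13). EGFR, which is amplified in this line, rose from 2194 ± 79.5 to 2675 ± 17.8 in parental cells and fell from 1895 ± 127 to 1347 ± 41.2 in OlaR cells, an interaction of -0.78 (SE 0.078, adjusted p = 1.15e-10). Its negative regulators ERRFI1 and CBL had interactions of -0.69 and -0.32. CBL passed in neither arm and lost its call in 9 of the 19 alternatives tried. MITF, GTF2IRD1 and FAM129A were further genes of large negative interaction with -1.46, -1.11 and -1.63, and the first 2 rose in parental and fell in OlaR cells.

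Many genes of DNA replication rose with CDDP in both kinds of cells, while genes of crosslink repair rose more often in parental cells by count. Those of either list with a called interaction all ended lower in OlaR cells than the parental response gives. Of 44 replication and E2F genes, 38 rose in parental and 30 in OlaR cells with none falling in either, and 12 had a negative and 0 a positive interaction (median -0.26). E2F2, an activating E2F, went from 387, 348 and 375 to 733, 748 and 660.1 in parental cells and from 723, 753 and 741 to 815, 775 and 908 in OlaR cells. The OlaR libraries without CDDP were already at the level that the parental libraries reached with it, and the interaction was -0.78 (SE 0.11, adjusted p = 8.18e-07). The replication factor subunit RFC3, the chromatin assembly subunit CHAF1A and the thymidine kinase TK1 had -0.42, -0.58 and -0.45. The helicase subunits and loaders MCM2, MCM7, MCM10, CDC6 and CDT1 had -0.37, -0.32, -0.46, -0.29 and -0.37.

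Of 40 homologous recombination and Fanconi anemia genes, 18 rose and 1 fell in parental cells, 8 rose and 3 fell in OlaR cells, and 12 had a negative and 0 a positive interaction (median -0.26). Without OlaR replicate 3 with CDDP, or without parental olaparib replicate 1, 7 were negative. BRCA2 (chr13:32315077-32400268), which acts in homologous recombination, had 519, 516 and 498 adjusted reads in parental cells in olaparib and 969, 963 and 934 with CDDP, and 739, 669 and 626 without and 783, 884 and 799 with CDDP in OlaR cells. Its interaction was -0.62 (SE 0.11, adjusted p = 5.43e-05), with a rise in both arms. BRCA1 (chr17:43044295-43170327) rose from 336, 333 and 371 to 566, 511 and 587 in parental cells, and its OlaR change of 0.21 did not pass (adjusted p = 0.0664, limma). The BRCA1 interaction was -0.46 (SE 0.12, adjusted p = 0.00378). The helicase BRIP1 had -0.93 (SE 0.19, adjusted p = 0.000285) and RBBP8 (CtIP), which starts end resection, -0.66 (SE 0.13, adjusted p = 0.000272). FANCC, of the Fanconi core complex, had changes of 0.49 in parental and -0.50 in OlaR cells (interaction adjusted p = 0.00393), and PALB2, which bridges BRCA1 and BRCA2, had an interaction of -0.74 (SE 0.25, adjusted p = 0.0354).

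PARP1, the target of olaparib, had 1301 ± 50.1 adjusted reads without and 1215 ± 69.2 with CDDP in parental cells and 832 ± 28.7 and 829 ± 46.4 in OlaR cells. POLH, the translesion polymerase η that bypasses platinum adducts, had 243 ± 15.1, 226 ± 9.36, 124 ± 9.69 and 116 ± 9.34 in the same order. CDDP changed neither gene in either arm at the threshold, and their interactions were 0.09 (SE 0.10) and -0.01 (SE 0.17). GADD45A, which stress induces to halt the cycle, rose in both arms (1.33 and 1.00) with an interaction of -0.34 (SE 0.16, adjusted p = 0.147), and the ERK phosphatase DUSP6 likewise (1.37 and 1.11, interaction -0.26 with SE 0.54). PARP2 was called at -0.32, through the larger parental rise, and lost its call in 5 of the 19 alternatives tried.

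Histone genes of the replication-dependent clusters, most of whose transcripts lack a poly(A) tail, moved apart in the 2 arms. Of 23 tested, 8 rose in parental cells and 0 in OlaR cells, 6 fell in OlaR cells and 1 in parental cells, and 8 had a negative and 1 a positive interaction (median -0.73). HIST1H4C had 12601, 13657 and 14179 adjusted reads in parental cells in olaparib and 16130, 16533 and 18402 with CDDP, against 8051, 7730.4 and 9859.7 without and 5947, 6280.2 and 6244 with CDDP in OlaR cells. It rose in one and fell in the other with no overlap, an interaction of -0.80 (SE 0.083, adjusted p = 3.11e-10). The linker histone genes HIST1H1C and HIST1H1E had -1.24 and -1.17, and HIST2H2AC -1.44. Genes of the same histone family can be alike in sequence, so reads may be split among such members uncertainly.

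Among positive interactions, the smallest p belonged to HSPA1A (chr6:31815543-31817942), the inducible HSP70 chaperone. It had 2833, 2735 and 2391 adjusted reads in parental cells in olaparib and 1209, 1093 and 1112 with CDDP, and 3722, 3581 and 3569.8 without and 3959, 3549 and 3556 with CDDP in OlaR cells. The parental groups did not overlap and the OlaR groups did, and the interaction was 1.24 (SE 0.086, adjusted p = 1.92e-15). Its coding sequence is nearly that of HSPA1B, so the assignment of reads between them is uncertain. Of 23 heat shock protein genes, 8 had a positive and 0 a negative interaction, 11 fell in parental cells and 2 in OlaR cells. HSPA8, the constitutive HSP70, went from 2318 ± 72.7 to 1436 ± 132 in parental cells and from 1484 ± 65.9 to 1418 ± 46.8 in OlaR cells, and the co-chaperone DNAJA1 had 0.57 (SE 0.11, adjusted p = 8.48e-05). HSP90AB1 was called at 0.32, and after quantile normalization its interaction was 0.056 with no call.

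Hypoxia and HIF-1 target genes, which serve glycolysis, vessel growth and oxygen supply, fell with CDDP more often in parental cells than in OlaR cells by count. Of 30 tested, 15 fell and 2 rose in parental cells, 1 fell and 5 rose in OlaR cells, and 13 had a positive and 1 a negative interaction (median 0.47). The single negative member was STC2, which is on the ATF4 list too. STC1, a secreted paralog of STC2, went the other way from it, with 1067, 1120 and 1083 adjusted reads in olaparib and 483, 452 and 516 with CDDP in parental cells and 1365, 1443 and 1375 without and 1621, 1512 and 1406 with CDDP in OlaR cells, an interaction of 1.29 (SE 0.092, adjusted p = 4.01e-15). ANGPTL4 (chr19:8364155-8374370), a secreted lipase inhibitor, went from 281, 303 and 384 to 109, 87.1 and 85.7 in parental cells and from 74, 85.1 and 56.7 to 109.8, 106 and 99.4 in OlaR cells. It fell in the one and rose in the other, from starting levels that already differed, an interaction of 2.33 (SE 0.20, adjusted p = 1.1e-12). NDRG1 fell in both, -1.23 and -0.62. Glycolytic genes of the list were called as well, PGK1 at 0.57, ENO1 at 0.35 and LDHA at 0.51, and the peptide hormone ADM at 1.00, the last through a rise of 1.43 in OlaR cells.

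Most mitotic genes fell in both arms, and those with a called interaction fell less in OlaR cells than the parental response gives. Of 47 G2/M and mitotic genes, 41 fell in parental cells and 29 in OlaR cells with 0 rising in either, and 18 had a positive and 0 a negative interaction (median 0.21). Promoters of this class often carry a cell cycle homology region, and its letters TTTGAA, on either strand, were present in 28 of the 42 windows of the list (66.7%) against 9.87% of all windows. Among the 15 windows of called members 8 held it (53.3%), a lower share than in the whole list. It is shown in 3 called members as a description only.
PLK1 (chr16:23678789-23678888, + strand, match at -29): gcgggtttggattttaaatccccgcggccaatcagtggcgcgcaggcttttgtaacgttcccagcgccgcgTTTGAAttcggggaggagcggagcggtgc
CDC20 (chr1:43358881-43358980, + strand, match at -65): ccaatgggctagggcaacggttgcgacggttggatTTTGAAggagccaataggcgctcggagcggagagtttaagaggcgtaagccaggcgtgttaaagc
PIF1 (chr15:64825648-64825747, - strand, match at -20): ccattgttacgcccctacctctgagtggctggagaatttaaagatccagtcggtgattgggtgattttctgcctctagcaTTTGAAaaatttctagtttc
CCNB1 (cyclin B1, chr5:69167150-69178245) had 1691, 1709.9 and 1719 adjusted reads in parental cells in olaparib and 696, 632 and 677 with CDDP, and 1064, 1182 and 1257 without and 861, 809 and 843 with CDDP in OlaR cells. Within each kind of cells the groups were apart, and the interaction was 0.88 (SE 0.092, adjusted p = 3.57e-10). The mitotic kinase PLK1 went from 493 ± 89.5 to 145 ± 18.1 in parental cells and from 231 ± 31.5 to 159 ± 22.3 in OlaR cells, the kinesin KIF20A had 0.95 (SE 0.17, adjusted p = 3.7e-05), and topoisomerase TOP2A 0.59 (SE 0.078, adjusted p = 9.99e-08). As with the ATF4 genes, olaparib alone had moved the starting level. It raised 32 of the 47 and lowered 0 against untreated parental cells (median 0.39), and CCNB1 had 1097 ± 31.6 adjusted reads in untreated cells and 692 ± 35.2 with CDDP alone.

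Smaller groups followed the same course of a parental fall. Of 25 cholesterol synthesis genes 6 had a positive and 0 a negative interaction, and 11 fell in parental cells against 2 in OlaR cells. HMGCS1, which makes the precursor of mevalonate, had an interaction of 0.80 (SE 0.19, adjusted p = 0.002), and INSIG1, which holds back SREBP processing, 0.51 (SE 0.096, adjusted p = 9.49e-05). Both fell in parental cells (-0.56 and -0.58) with no call in OlaR cells. Of 24 ribosomal protein genes 10 were positive and 2 negative (median 0.0978), and 14 fell in parental cells. After quantile normalization 6 were positive and 5 negative (median 0.0173). RPS27A had 0.77 (SE 0.09, adjusted p = 5.7e-09), and RPS14, RPS19 and RPL13 had 0.68, 0.53 and 0.42, although many ribosomal protein genes have processed copies that could take reads. Small nucleolar and Cajal body RNAs came after ANGPTL4 in size in the class that fell in parental and rose in OlaR cells. SNORA79 had 612, 617 and 709 adjusted reads in olaparib and 249.7, 256 and 243 with CDDP in parental cells, and 31.4, 42.4 and 34.1 without and 75.7, 56.5 and 78.1 with CDDP in OlaR cells, an interaction of 2.31 (SE 0.21, adjusted p = 6.17e-12), and SNORA12 and SCARNA18 had 1.74 and 1.74. They lie within other genes, and reads of the host transcript are not separable here.

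Other positive interactions came from a rise in OlaR cells. SFN (chr1:26863149-26864456), 14-3-3σ, which holds cells in G2, had 3669, 3447 and 3771 adjusted reads in olaparib and 3535, 3262 and 2969 with CDDP in parental cells, and 2575, 2536 and 2318 without and 4609, 4119.8 and 4161 with CDDP in OlaR cells. The OlaR groups were wide apart, while parental cells changed by -0.16, and the interaction was 0.95 (SE 0.082, adjusted p = 1.1e-12). Among 28 NRF2 and glutathione genes 7 were positive and 4 negative, and in OlaR cells 7 rose and 6 fell. The negative ones were SLC7A11, NFE2L2 (the NRF2 gene itself), TXNRD1 and GSS, at -2.10, -0.55, -0.34 and -0.43. NFE2L2 fell in OlaR cells (-0.32). KEAP1, the NRF2 inhibitor, and OSGIN1, one of the NRF2 target genes, rose in OlaR cells (0.52 and 1.43) with no call in parental cells, and GSTP1 rose there and fell in parental cells (0.35 and -0.24). CD9, a tetraspanin, and the histone variant gene H2AFZ had 1.39 (SE 0.15, adjusted p = 1.33e-09) and 0.91 (SE 0.082, adjusted p = 4.73e-12), in both cases from a parental fall (-1.25 and -0.75). FTH1, the ferritin heavy chain, fell in parental cells (-0.62) and had 0.49. PLCG1, a phospholipase C, rose by 1.19 in OlaR cells and had 1.49. XAGE2 and MAGED1 were called at 1.70 and 1.44 but were nearly silent in OlaR cells, with 2, 3 and 1 MAGED1 reads in the CDDP libraries against 333 ± 53.1 adjusted reads in parental cells, and both lost the call when the recovered reads were weighted by depth (voom). C1orf61 had 3.07 and rose in OlaR cells from 11, 19.1 and 10 to 61.8, 52.2 and 51.6 adjusted reads. That rise is smaller than the interaction, and the remainder is a parental change that was not called.

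Genes of great genomic length fell further with CDDP in OlaR cells. As background, platinum adducts stop RNA polymerase II, and a long gene is a longer template. Of the genes tested 12806 had a span in the RefSeq annotation. Among the 390 genes spanning 300 kb and more, the median change with CDDP was -0.151 in parental cells in olaparib and -0.815 in OlaR cells, and 38.7% had a negative and 0.256% a positive interaction. Among 2941 genes under 10 kb the medians were -0.0122 and 0.0963, with 3.81% negative and 13.3% positive. Each library gave the same picture. The median of the longest genes was -0.783 to -0.809 in the 3 OlaR libraries with CDDP and -0.12 to -0.161 in the 3 parental ones, each against the mean without CDDP. Without OlaR replicate 3 with CDDP, the shallowest library, the median interaction was -0.645 in place of -0.658. In OlaR cells 63.3% of these genes fell and 0 rose, and in parental cells in olaparib 16.7% fell. With CDDP alone, the median change of these genes in parental cells was -0.425 against untreated cells, a larger fall than in olaparib.

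SHANK2 (chr11:70467854-71253234), a scaffold protein gene, had 96.7, 127 and 87.8 adjusted reads in olaparib and 44.5, 67.4 and 61.1 with CDDP in parental cells, and 106, 113 and 103 without and 17.2, 8.96 and 9.38 with CDDP in OlaR cells. It fell in both with no overlap and by more in OlaR cells, an interaction of -2.30 (SE 0.29, adjusted p = 4.66e-08), although only 12, 7 and 3 reads lie behind the last 3 values. MSI2, an RNA-binding protein, went from 275 ± 23.5 to 217 ± 12.3 and from 277 ± 42.3 to 88.4 ± 13.5, an interaction of -1.30 (SE 0.17, adjusted p = 7.75e-08). PRKCE, protein kinase C epsilon, had 44.4, 71.4 and 71.4 adjusted reads without and 68.4, 67.3 and 56.4 with CDDP in parental cells, which overlapped, and 45.9, 64.3 and 51.1 without and 6.6, 8.68 and 11.6 with CDDP in OlaR cells. Its interaction was -2.54 (SE 0.36, adjusted p = 6.06e-07). EXOC4, of the exocyst, had -1.36 (SE 0.20, adjusted p = 1.79e-06), and the polarity gene PARD3 -0.97 (SE 0.17, adjusted p = 2.58e-05). On the list of 28 very long and fragile-site genes 12 were negative and 1 positive, and 20 fell in OlaR cells against 12 in parental cells. The exception, SMYD3, fell further in parental cells (-2.90) and was read at 33.7 adjusted reads at most. With CDDP alone against untreated parental cells, 22 of the 28 fell and 0 rose. The median change of the list was -0.767 with CDDP alone, -0.45 in parental cells in olaparib and -1.07 in OlaR cells. NBEA, THSD4, ENOX1 and SCFD2 added interactions of -1.22, -2.09, -1.95 and -1.92.

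**Figure D4:**
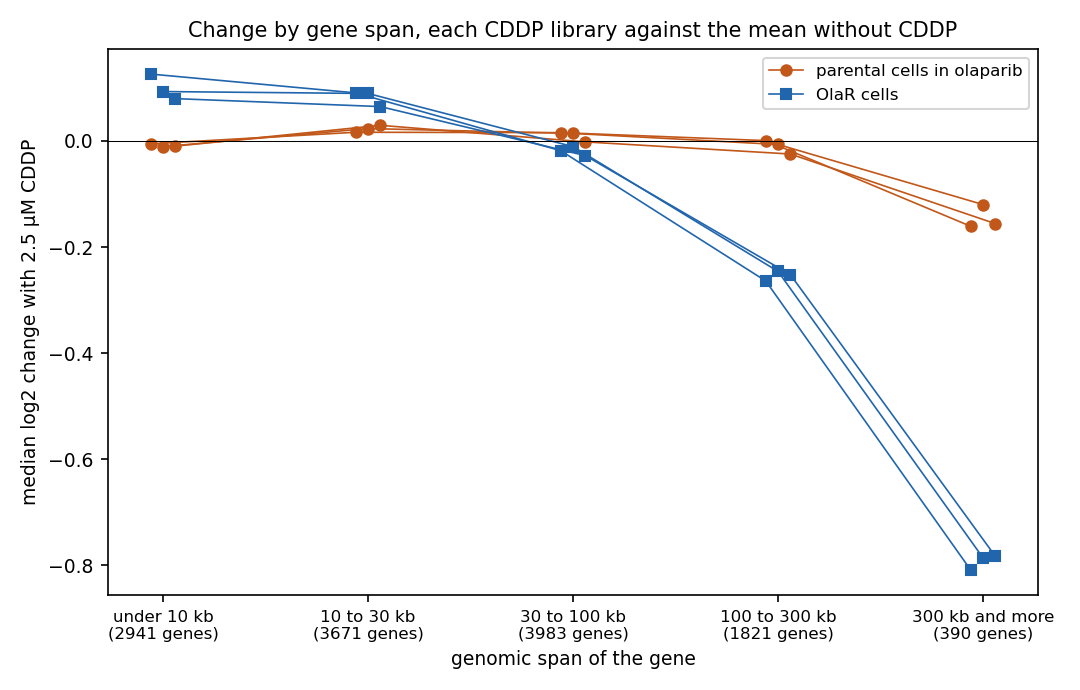
Median log2 change with 2.5 µM CDDP (vertical axis) of genes in 5 classes of genomic span (horizontal axis), for each CDDP library against the mean of the 3 libraries without CDDP. The OlaR lines drop to between -0.783 and -0.809 in genes of 300 kb and more, and the parental lines to between -0.12 and -0.161.

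Other lists tied to damage or signalling had at most 3 called interactions in either direction. Over all genes tested, 7.58% were positive and 7.47% negative. The negative shares of the translesion synthesis, EGF receptor and MAPK feedback lists lay above this, and so did the positive shares of the NF-κB and metallothionein lists. Both shares of the p53 targets lay near it. These lists are short, and none was tested as a set. Of 28 p53 targets 10 rose in parental and 7 in OlaR cells, with a median of 0.315 in each, and 2 were positive and 2 negative, among them PHLDA3 at 0.50, PLK2 at 0.36 and PMAIP1 (NOXA) at -0.64, a call lost in 11 of 19 alternatives. MDA-MB-468 carries mutant p53. No interaction was called among 33 interferon-stimulated genes, whose median changes were 0.101 in parental and 0.277 in OlaR cells. NF-κB targets had 2 positive (NFKBIA, SOD2) and 1 negative (REL) of 18, MAPK feedback genes 2 (SPHK1, CCND1) and 3 of 24, translesion synthesis genes 0 and 3 of 13 (REV3L, POLK and MAD2L2, of which POLK lost the call in 10 and MAD2L2 in 12 of 19 alternatives), PARP family genes 1 (ADPRHL2) and 1 (PARP2) of 16, the EGF receptor family 0 and 3 of 12, and drug efflux and platinum transport genes 0 and 1 of 14, the last being LRRC8D at -0.56. Only 3 metallothioneins passed the filter on low values and 1, MT1X, was called at 0.47, a call it lost in 14 of 19 alternatives. The class with no call in either arm was led by DNAH11, RAB30 and CAGE1 (-1.22, -1.21 and -1.10) and by TNK1 (1.17), all of which lost the call in several alternatives. KREMEN2 and STAG3L2 (1.35 and 1.28) were among the 4 largest interactions of the class that fell in parental cells without a call in OlaR cells.

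**Figure D5:**
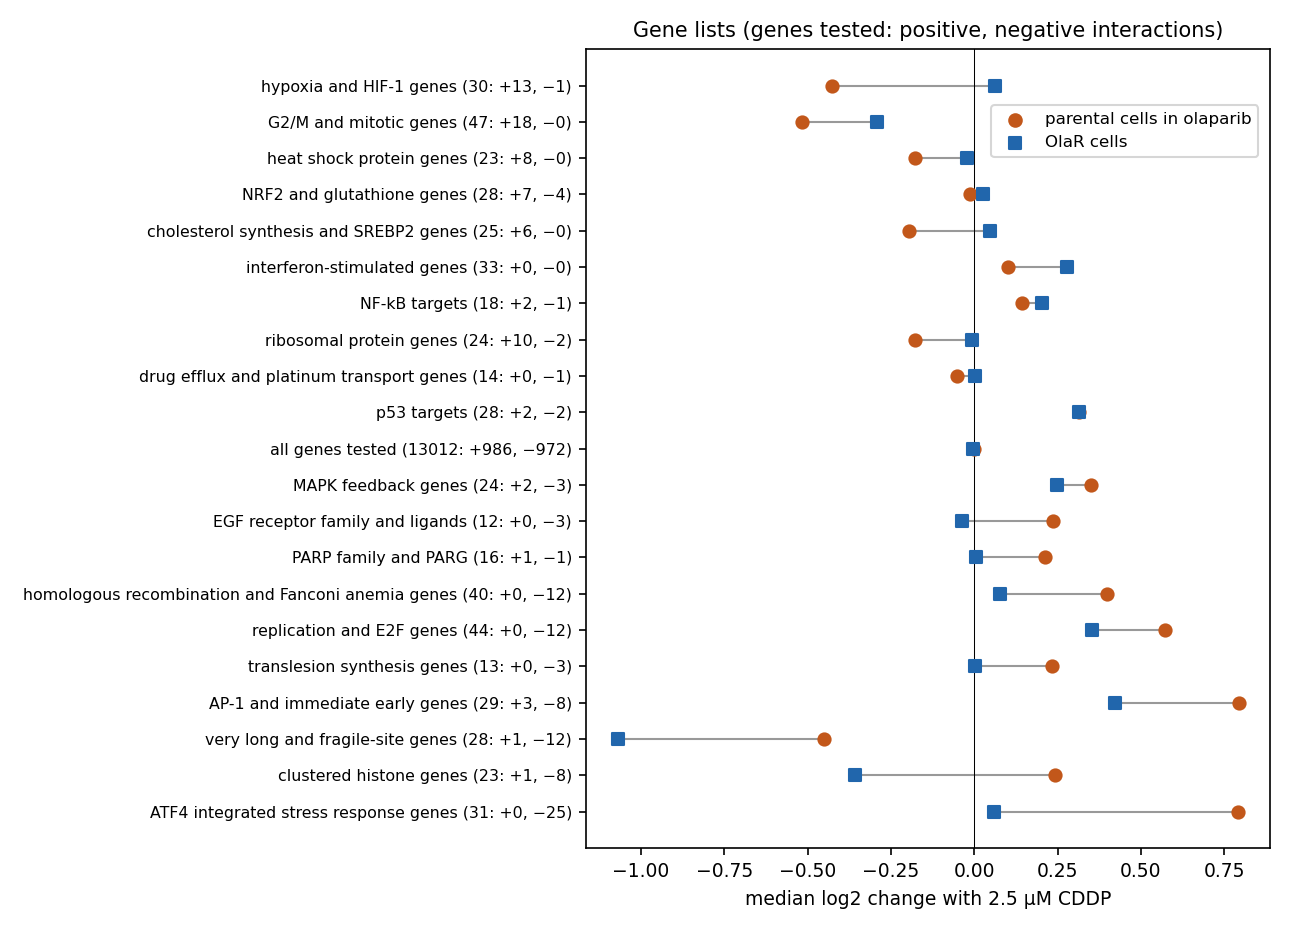
Median log2 change with 2.5 µM CDDP (horizontal axis) of each gene list in parental cells in olaparib (circles) and in OlaR cells (squares), ordered by the median interaction, with genes tested and positive and negative interactions in brackets. The ATF4 list is widest apart downward (0.791 to 0.058) and the hypoxia list upward (-0.427 to 0.063).

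Since olaparib had changed the starting levels, the same OlaR arm was also set against parental cells treated with CDDP alone and untreated parental cells, a comparison added after the values were seen. It shares the 6 OlaR libraries with the main one, so values are given side by side. It called 597 positive (4.59%) and 981 negative genes (7.54%). Of the ATF4 genes 2 were then positive and 4 negative, with a median of 0.00084 in place of -0.82, and CHAC1 and SLC7A11 had 0.49 and -0.12. For mitotic genes the counts were 4 positive and 8 negative (median -0.0012), and for hypoxia genes 4 and 2 (0.018). Replication and E2F genes had 0 positive and 21 negative (median -0.40), and E2F2 and TK1 -1.30 and -0.98. Homologous recombination and Fanconi anemia genes had 1 positive and 10 negative, and NRF2 and glutathione genes 7 and 0. AP-1 and immediate early genes had 8 positive and 4 negative (median 0.37). Of the histone genes 1 was positive and 1 negative (median -0.248, against 8 negative before), of the heat shock genes 2 and 0 in place of 8 and 0, and of the ribosomal protein genes 0 and 2 in place of 10 and 2. Genes of 300 kb and more had a median of -0.367, with 19.2% negative. STC1, ANGPTL4 and SFN stayed positive and called in both comparisons (0.44, 1.20 and 0.72 here), and MSI2, SHANK2 and HIST1H4C stayed negative (-1.23, -1.85 and -1.15). Other genes with small p values in the main comparison did not keep their difference. STC2, at -1.49 there, changed by -0.0075 with CDDP alone in parental cells and by 0.119 in OlaR cells. The values of HSPA1A, ID4 and CCNB1 in this comparison are not reported here.

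At 1 µM CDDP fewer interactions were called, 181 positive (1.39%) and 196 negative (1.51%). Leaving out single libraries gave 196 to 452 in all, with 196 to 248 for 4 of these libraries. The 2 doses share the libraries without CDDP. Of the ATF4 genes 15 were negative and 0 positive at this dose, with a median of -0.53. CHAC1 and SLC7A11 were near their values at the higher dose (-2.17 and -1.84), whereas STC1 and ANGPTL4 were smaller (0.67 and 0.76). Mitotic genes had 3 positive and hypoxia genes 4, with medians of 0.11 and 0.24. The longest genes had a median interaction of -0.254, with -0.279 in OlaR cells and -0.0269 in parental cells.

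SUM1315, a triple negative line with mutant BRCA1, was treated in the same scheme with 8 µM olaparib in parental cells, 25 µM in OlaR cells and 4 µM CDDP, and shares no library with MDA-MB-468. There 262 genes had a positive (1.99%) and 579 a negative interaction (4.41%). Of the 1877 MDA-MB-468 calls tested in both lines, 265 were also called in SUM1315, which is 14.1% of them and 34.6% of the 767 SUM1315 calls, while 6.52% of all genes tested in both were called in SUM1315. The sign was the same in 246, 179 of them negative, and opposite in 19. The genes of 300 kb and more had medians there of -0.129 in parental and -0.745 in OlaR cells, with an interaction of -0.649. EXOC4 and MSI2 were called in SUM1315 as well (-2.31 and -1.19), and so were HIST1H4C, EGFR and JUN (-1.50, -0.72 and -0.64). The ATF4 genes did not follow, with 3 positive and 4 negative and a median of 0.0072. STC2 and SLC7A5 were called in the same direction there (-0.64 and -1.24), and CHAC1 and SLC7A11 in the opposite one (1.53 and 0.84). NRF2 and glutathione genes had 10 positive and 0 negative in SUM1315 (median 0.42), and homologous recombination and Fanconi anemia genes 0 and 2.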

How the data were processed

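RNA of MDA-MB-468 cells was sequenced as QuantSeq 3′ tags (50 bp reads, CASAVA 1.8.2, hg38, with edgeR used by the authors). The deposited signal values are reads per gene adjusted by the authors to a common library size. Inverting that adjustment recovered whole reads for 100% of 1483380 values (relative tolerance 1e-04). Values were tested as log2(value + 1) with limma 3.58.1 in R 4.3.3 (trended prior, 27 libraries of the line, 9 conditions, genes with at least 10 in at least 3 libraries), so fold changes of low genes are understated. Interaction calls and the rises and falls in either arm used a Benjamini-Hochberg adjusted p of 0.05 without a fold limit. With a fold of 2, the arms gave 249 parental and 311 OlaR genes. On simulated data, 75% of genes given a log2 interaction of 1 and 13% of those given 0.5 were called. There only a small set of genes with a mean of at least 50 was changed, with 1 dispersion for all genes. Far more genes were called in the real data, so these shares do not measure its sensitivity.

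Genes named were the 4 largest interactions per class of at least 4 genes with a group mean of at least 50, the 5 smallest p values each way, at most 4 called genes per list, and PARP1, POLH, BRCA1, GADD45A and DUSP6. Some genes that these rules name are not reported here. Others, such as SLC7A1, the further ATF4 genes and the genes after the first 4 of a list, were chosen after their values were seen. Members and lists were chosen with earlier results of these data known. No mitochondrially encoded gene was in the table. The comparison without olaparib in the parental arm and the scaling to total reads were added after seeing the data. Symbols and promoter sequences are RefSeq's (GRCh38.p14, with 25201 row names matched to current symbols, 1192 to older ones and 1075 unmatched). The authors' own fold changes and p-values were not used. The labels give 2.5 µM CDDP, used here, where the text of the series gives another dose. Replicate numbers did not pair the libraries.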

Additional observations from a re-analysis of the deposited data

Results flagged for a closer look

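The test of the difference between the OlaR and the parental response flagged 1958 genes at 2.5 µM CDDP and 377 at 1 µM in MDA-MB-468, and 841 at 4 µM in SUM1315. Opposite changes, each past the threshold in its own arm, were found in 53 genes that rose in parental and fell in OlaR cells and in 73 that fell in parental and rose in OlaR cells. No group held more than 3 libraries, so single libraries were not tested as outliers.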

How the results depend on the processing

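The count of 1958 interactions was 1567 with no filter on low values, 1962 with a pseudocount of 5, 1817 with the compared libraries alone, 1803 after quantile normalization, 1570 with voom on the recovered reads and 2040 with scaling to total reads. An absolute log2 difference of at least 1 left 276 (72 positive, 204 negative). With no limit on the fold, 3010 genes passed in the parental arm in place of 249 and 2427 in the OlaR arm in place of 311, and voom gave 176 in the OlaR arm. The 1 µM count of 377 was 181 with no filter, where 21617 genes were tested. The cause of these shifts was not tested beyond the changed limit or number of genes.

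Leaving out single libraries gave 1545 to 1894 interactions (782 to 1005 positive, 751 to 889 negative), 227 to 272 genes in the parental arm, 264 to 307 in the OlaR arm, 196 to 452 at 1 µM and 563 to 719 in SUM1315. At 1 µM, 196 genes were called without OlaR + 1 µM CDDP replicate 3, 211 without parental + olaparib + 1 µM CDDP replicate 1, 238 without OlaR replicate 1 and 248 without parental + olaparib replicate 2. With the replicate block 1909 interactions were called (962 positive, 947 negative), 315 at 1 µM and 846 in SUM1315. Deviations of libraries with the same number correlated at -0.0313 to 0.0426, so the numbers were not taken as pairs.

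Of 95 called named genes, 75 kept the call in all 19 alternatives and 20 lost it in at least 1, and no called value changed sign. The ATF4 list had 24 to 26 negative interactions and the mitotic list 15 to 19 positive ones over these alternatives, and the homologous recombination and Fanconi anemia list 7 to 12 negative ones. Planned edgeR and DESeq2 tests on the recovered reads were not run, and voom stands as the test on reads. The OlaR libraries with CDDP were the shallowest, which limits genes such as SHANK2, PRKCE, ANKRD1 and MAGED1.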
